A study of Rattus norvegicus with 8 samples.

Results

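De novo lipogenesis, the making of fatty acids from carbohydrate, was followed through 10 genes of the rat liver. They were chosen by name, for their role in the pathway: Acly, Acaca, Fasn and Me1 (enzymes and reductant supply of the pathway), Elovl6 and Gpam (use of its product), Thrsp (a regulator of its enzymes), Srebf1 and Mlxipl (its transcription factors) and Pnpla3 (a lipid droplet protein). The array carried 17 probes for these genes among 45598 distinct probes, and the 10 genes stood among 27110 named ones. Of these, 15 probes and 9 genes passed the filter on dim signals, and Pnpla3 did not. RNA came from liver sections of F344 rats, whose strain the labels give as DPPIV+, cut by laser microdissection (LMD). Every recipient had received retrorsine (Ret), an alkaloid that blocks division of mature hepatocytes, followed by partial hepatectomy (PH). Small hepatocyte-like progenitor cell clusters (SHPCs), the small hepatocytes that form nodules in such livers, were taken from 3 control samples without transplantation and from 3 samples of livers given bone marrow-derived mesenchymal cells (BM-MCs) through the spleen. The 2 samples of mature hepatocytes (MHs) came from control livers. No source links a sample to an animal, so p-values measure only sample-to-sample spread, part of which may be technical. By the methods' flow cytometry, the cultured BM-MCs were a mixture and not purely mesenchymal stem cells.

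In the cytosol, citrate exported from mitochondria is split by ATP citrate lyase to acetyl-CoA, which acetyl-CoA carboxylase turns into malonyl-CoA and fatty acid synthase builds into palmitate with NADPH, part of it from malic enzyme. In hepatocytes the genes of this route are induced after carbohydrate feeding, by SREBP-1c downstream of insulin and by ChREBP downstream of sugar phosphates. Elongase and desaturase then shape the product, and mitochondrial glycerol-3-phosphate acyltransferase commits it to glycerolipids.

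Sequences are shown for the members on which the results turn. The probe of Thrsp (chr1:154651216-154651275; array annotation, rn4 per the file header) and the second probe of Elovl6, whose ends lie at chr2:227047594-227052367 in that annotation and therefore on both sides of an intron, are given in full as the targets that were measured.
Thrsp probe: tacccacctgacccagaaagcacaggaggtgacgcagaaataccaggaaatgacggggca
Elovl6 second probe: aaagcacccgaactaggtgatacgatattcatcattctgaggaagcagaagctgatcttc

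The 250 bases before the transcription start are shown for Thrsp and Acly, 2 of the 6 members with both MHs samples above all SHPC samples, and for Mlxipl, which was not among them. They are RefSeq sequences of GRCr8, all on the minus strand and printed 5′ to 3′ as transcribed, and capitals mark CCAAT and GGGCGG on either strand.
Thrsp (chr1:161138965-161139214): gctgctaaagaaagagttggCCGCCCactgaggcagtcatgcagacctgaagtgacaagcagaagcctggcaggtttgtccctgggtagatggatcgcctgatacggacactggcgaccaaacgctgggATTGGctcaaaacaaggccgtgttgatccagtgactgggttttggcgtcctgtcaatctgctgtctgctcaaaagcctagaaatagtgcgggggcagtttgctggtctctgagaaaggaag
Acly (chr10:85963632-85963881): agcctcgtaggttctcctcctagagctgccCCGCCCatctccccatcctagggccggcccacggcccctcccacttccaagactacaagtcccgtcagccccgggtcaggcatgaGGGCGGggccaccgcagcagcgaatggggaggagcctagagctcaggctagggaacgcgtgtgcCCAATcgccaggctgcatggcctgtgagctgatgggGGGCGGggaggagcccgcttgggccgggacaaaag
Mlxipl (chr12:27213661-27213910): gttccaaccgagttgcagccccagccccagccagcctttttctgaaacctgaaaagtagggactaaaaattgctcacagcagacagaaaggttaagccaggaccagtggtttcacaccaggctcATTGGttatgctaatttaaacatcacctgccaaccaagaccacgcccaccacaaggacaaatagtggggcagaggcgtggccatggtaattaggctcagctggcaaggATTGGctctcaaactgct

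RefSeq promoters were matched for 7 of the 10 members, in 9 windows because Srebf1 and Mlxipl have more than one start. The windows of Mlxipl overlap almost fully, so its matches are counted in both. CCAAT, the letters bound by NF-Y, lay in 8 of the 9 windows and in 34.0% of all 33469 promoter windows of that length. Thrsp held it 121 bases before the start and Acly 71 bases before it, and Me1 was the member without it. GGGCGG, the letters of a GC box, lay in 6 of the 9 windows and in 30.5% of all windows. Acly held it at 3 positions, Thrsp at 1, and Mlxipl at none. TCACNCCAC, a form of the sterol regulatory element, lay in 0 of the 9 windows and in 0.974% of all windows, and CACGTG, a palindromic form of the looser E-box CANNTG, in 0 of 9 and in 5.59%. CANNTG itself lay in 4 of the 9 windows (of Gpam, Mlxipl and Srebf1) and in 65.5% of all windows. These matches describe letters within the window searched.

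A single slide carried the 8 arrays. Its row 1 held both MHs samples and control SHPC replicates 1 and 2, and its row 2 held the remaining control together with all BM-MC samples. For the brightest probe of each tested member, comparisons are therefore also given within a row where a row held both groups. Marker lists and the wider pathway are not given within rows. Between 57.0% and 61.5% of spots were well above background, with marks for only part of the control SHPC replicate 2 array. Correlations between replicates across probes ran from 0.983 to 0.993. Values below are log2 ratios of a signal to its array's 75th percentile, called log2 levels, and differences are between group means of log2 levels.

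In each of the 3 comparisons, 0 of the 9 tested members passed limma at an adjusted p under 0.05. That rule called 0.0216% of all 23111 probes between SHPCs with and without BM-MCs, 1.13% between control SHPCs and MHs, and 0.338% when the BM-MC group was set against MHs. At an unadjusted p under 0.05 limma gave 1, 3 and 4 members in these comparisons, beside 16.6%, 19.2% and 13.3% of all probes. The methods' t-test gave 1, 4 and 1 members at an unadjusted p under 0.05, beside 14.9%, 17.5% and 9.26% of all probes, and 0 members after Benjamini-Hochberg adjustment. Within these limits the members fell into a set of 6 with both MHs samples above all 6 SHPC samples (Acly, Acaca, Fasn, Me1, Thrsp and Elovl6), Gpam, with groups that overlapped at its brightest probe, Srebf1, higher in every control SHPC sample than in MHs, and Mlxipl, with its highest levels in SHPCs with BM-MCs. The order of the 6 was shared by 9.63% of all probes tested.

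**Figure D1:**
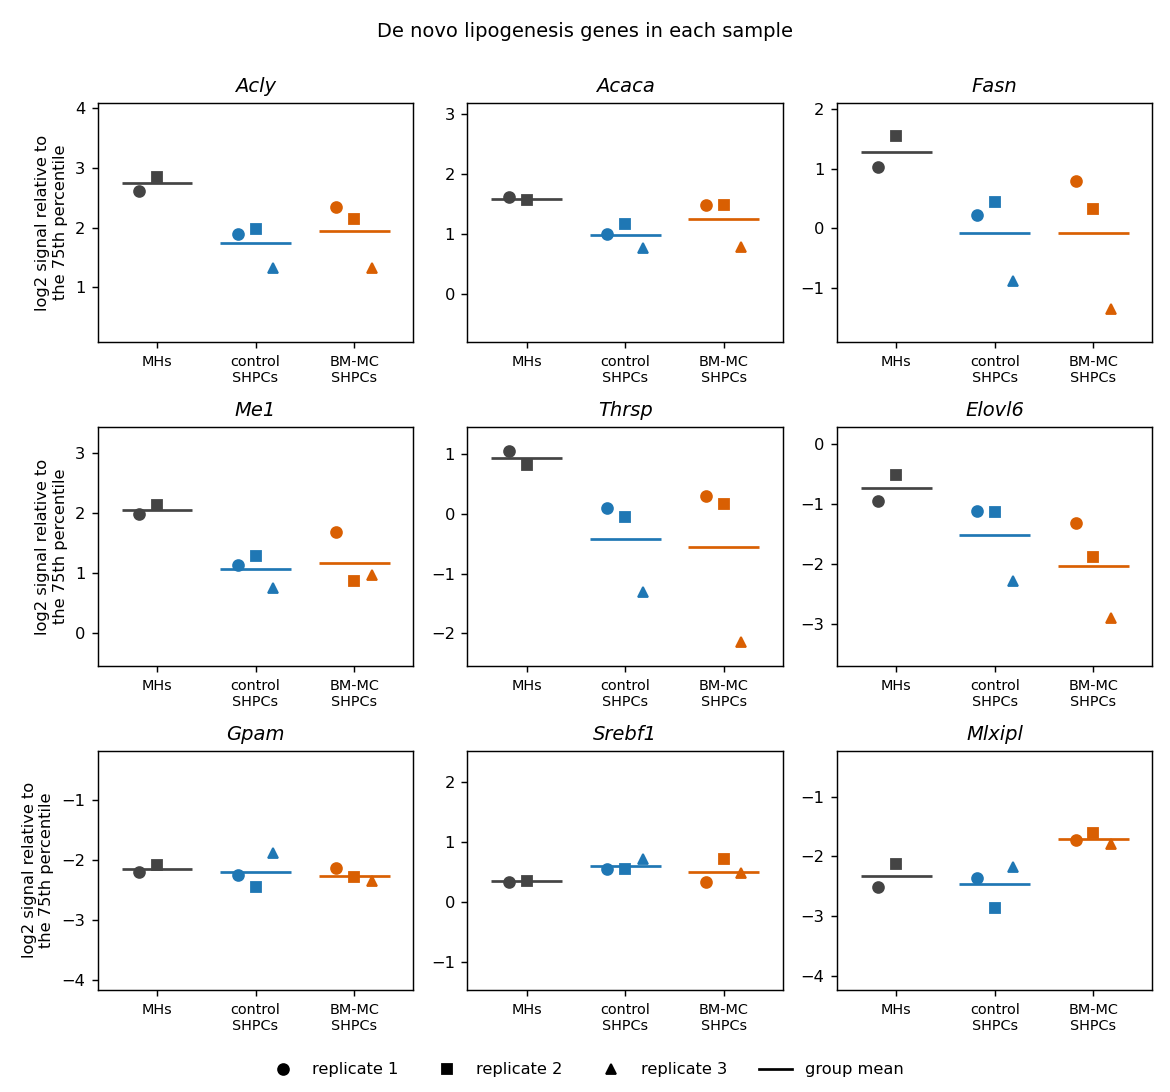
Each panel plots the log2 signal of 1 member, relative to the 75th percentile of the array, in MHs (2 samples), control SHPCs (3) and BM-MC SHPCs (3). Points are samples, their shape is the replicate number, bars are group means and every panel spans 4 log2 units. In the upper 6 panels both MHs samples lie above every SHPC sample, and in the panel of Mlxipl every BM-MC sample lies above every other sample.

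Acly, ATP citrate lyase, supplies the cytosolic acetyl-CoA of the pathway and was measured by 1 probe in 10 spots. Its log2 levels were 2.62 and 2.85 in MHs, 1.90, 1.98 and 1.33 in control SHPCs, and 2.35, 2.14 and 1.32 in SHPCs with BM-MCs. Both MHs samples were the highest, and replicate 3 was the lowest sample of either SHPC group. The mean of control SHPCs lay below that of MHs by a log2 difference of -1.0 ± 0.33 (SE), just under 2-fold, with an adjusted p = 0.18 from limma. Within row 1 of the slide it was -0.80, with an adjusted p = 0.091. SHPCs with BM-MCs differed from MHs by -0.80 ± 0.33 (SE, adjusted p = 0.36) and from control SHPCs by 0.20 ± 0.31 (SE, adjusted p = 0.77). Within row 2, where control replicate 3 was the lone control and was assumed to vary like the BM-MC group, the latter difference was 0.61 (adjusted p = 0.79).

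Acaca encodes acetyl-CoA carboxylase 1, which makes the malonyl-CoA that commits carbon to fatty acids. The brightest of its 3 probes stood at log2 levels of 1.61 and 1.56 in MHs, 0.99, 1.17 and 0.77 in control SHPCs, and 1.48, 1.49 and 0.78 in SHPCs with BM-MCs. BM-MC replicates 1 and 2 came close to the MHs samples, whereas replicate 3 lay at the level of the lowest control SHPC sample. The difference of control SHPCs from MHs was -0.61 ± 0.24 (SE, adjusted p = 0.24 from limma), and -0.50 within row 1. That of SHPCs with BM-MCs from control SHPCs was 0.27, with a 95% confidence interval from -0.28 to 0.82, and 0.48 within row 2. With 1 sample left out it ran from 0.15 (without BM-MC replicate 2) to 0.51 (without BM-MC replicate 3). The other 2 Acaca probes also gave differences below 0 against MHs, from -0.56 to -0.19, with groups that overlapped in 3 of the 4 cases. Between SHPC groups 1 of them differed in sign, at -0.06.

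Fasn, fatty acid synthase, assembles palmitate. Its log2 levels were 1.02 and 1.55 in MHs, 0.22, 0.44 and -0.88 in control SHPCs, and 0.80, 0.33 and -1.35 in SHPCs with BM-MCs. The spread within SHPCs was wide, with an SD of 0.71 in controls (n = 3) and 1.13 with BM-MCs (n = 3), since replicate 3 of each group lay far below the others. Control SHPCs differed from MHs by -1.36 ± 0.65 (SE), a 2.56-fold lower signal (adjusted p = 0.30 from limma). Within row 1, which leaves out control replicate 3, the difference was -0.95 (adjusted p = 0.13). SHPCs with BM-MCs were at -1.35 ± 0.65 (SE) against MHs (adjusted p = 0.41). Against control SHPCs the difference was 0.00, with a 95% interval from -1.49 to 1.5, which leaves room for more than a 2-fold difference either way, and within row 2 it was 0.81 (adjusted p = 0.85).

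Me1, cytosolic malic enzyme, makes NADPH for the synthase. Its log2 levels were 1.99 and 2.14 in MHs, 1.14, 1.29 and 0.75 in control SHPCs, and 1.68, 0.87 and 0.96 in SHPCs with BM-MCs. In contrast to the enzymes above, the lowest BM-MC sample was replicate 2. Me1 had the lowest adjusted p of the members between control SHPCs and MHs, with a difference of -1.01 ± 0.27 (SE), a 2.01-fold lower signal (adjusted p = 0.14 from limma), and -0.85 within row 1 (adjusted p = 0.077). The difference of SHPCs with BM-MCs from MHs was -0.90 ± 0.27 (SE, adjusted p = 0.29), and from control SHPCs 0.11 ± 0.26 (SE, adjusted p = 0.85), with 0.42 within row 2 (adjusted p = 0.82).

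Thrsp encodes Spot 14, a small nuclear and cytosolic protein induced by thyroid hormone and carbohydrate together with the lipogenic enzymes. The probe printed above gave log2 levels of 1.05 and 0.82 in MHs, 0.10, -0.05 and -1.31 in control SHPCs, and 0.30, 0.16 and -2.14 in SHPCs with BM-MCs. BM-MC replicate 3 was the lowest of all samples, and the SD over the 3 BM-MC samples was 1.37. The difference from MHs was -1.36 ± 0.76 (SE, adjusted p = 0.36 from limma) for control SHPCs and -1.50 ± 0.76 (SE, adjusted p = 0.43) for SHPCs with BM-MCs. Within row 1 the control difference was -0.91, with an adjusted p = 0.079. Between SHPC groups it was -0.14, with a 95% interval from -1.90 to 1.62, and within row 2 it turned to 0.75 (adjusted p = 0.88).

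Elovl6 lengthens palmitate to stearate. Its brighter probe gave log2 levels of -0.95 and -0.51 in MHs, -1.11, -1.13 and -2.29 in control SHPCs, and -1.31, -1.88 and -2.90 in SHPCs with BM-MCs. Control SHPC replicates 1 and 2 lay just under the lower MHs sample, and every BM-MC sample lay below them. SHPCs with BM-MCs differed from MHs by -1.30 ± 0.52 (SE), a 2.46-fold lower signal (adjusted p = 0.36 from limma), and control SHPCs by -0.78 ± 0.52 (SE, adjusted p = 0.44). Within row 1 the control difference was -0.39 (adjusted p = 0.32). The second probe, printed above, gave -1.23 and -0.93 for the same differences, and it was not well above background in BM-MC replicate 3. Between SHPC groups the brighter probe differed by -0.52 ± 0.49 (SE, adjusted p = 0.61). That value was -0.08 without BM-MC replicate 3, -0.88 without BM-MC replicate 1 and -0.91 without control SHPC replicate 3. Within row 2 it was 0.27.

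The 6 members with MHs on top were grouped here by that order, which by itself makes their levels correlate. Over the 8 samples, which share 1 slide and their scaling, Pearson correlations between pairs of them ran from 0.71 for Acaca with Elovl6 to 0.97 for Fasn with Acly, over 15 pairs. Over the 6 SHPC samples alone, which the order between MHs and SHPCs does not touch, they ran from 0.55 for Acaca with Me1 to 0.98 for Fasn with Thrsp. Replicate 3 was the lowest sample in both SHPC groups for 5 of the 9 tested members (Acly, Acaca, Fasn, Thrsp and Elovl6) and for 14.2% of all probes tested, a pattern noticed after the values were seen. Without replicate 3 of either SHPC group, the differences of control SHPCs from MHs were -0.95 for Fasn (adjusted p = 0.13 from limma), -0.91 for Thrsp (adjusted p = 0.055), -0.80 for Acly (adjusted p = 0.073), -0.50 for Acaca (adjusted p = 0.13) and -0.39 for Elovl6 (adjusted p = 0.42). In the same fit SHPCs with BM-MCs differed from MHs by -0.71 for Fasn (adjusted p = 0.37), by -0.71 for Thrsp (adjusted p = 0.23), by -0.49 for Acly (adjusted p = 0.34), by -0.10 for Acaca (adjusted p = 0.79) and by -0.86 for Elovl6 (adjusted p = 0.32). The control differences from MHs in this fit equal those within row 1, since both leave out control SHPC replicate 3. No member passed in this fit either.

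Gpam encodes the mitochondrial glycerol-3-phosphate acyltransferase. The brightest of its 3 probes stood at log2 levels of -2.20 and -2.09 in MHs, -2.25, -2.46 and -1.89 in control SHPCs, and -2.14, -2.29 and -2.35 in SHPCs with BM-MCs. All 3 groups overlapped, and no difference between the groups as a whole was beyond -0.11 in size. The difference of control SHPCs from MHs was -0.21 within row 1 (adjusted p = 0.46), and that between SHPC groups -0.37 within row 2 (adjusted p = 0.76). The other 2 probes, which share part of their sequence, went opposite ways against MHs: 1 gave 0.05 and 0.22 and the other -0.24 and -0.31 for control SHPCs and SHPCs with BM-MCs. The latter probe had both MHs samples, at -2.52 and -2.41, above all 6 SHPC samples, the highest of which was -2.66 (adjusted p = 0.29 and 0.33 from limma).

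Srebf1, which encodes SREBP-1a and SREBP-1c, was measured by probes that do not separate the isoforms by name. The brighter probe gave log2 levels of 0.34 and 0.36 in MHs, 0.55, 0.55 and 0.72 in control SHPCs, and 0.34, 0.72 and 0.48 in SHPCs with BM-MCs. Unlike the enzymes, it was higher in every control SHPC sample than in either MHs sample, an order that 18.7% of all probes shared. The difference was 0.25 ± 0.14 (SE, adjusted p = 0.37 from limma), and 0.20 within row 1 (adjusted p = 0.42). SHPCs with BM-MCs differed from MHs by 0.16 ± 0.14 (SE, adjusted p = 0.65), with groups that overlapped. The second probe gave 0.71 ± 0.20 (SE, adjusted p = 0.15) for control SHPCs and 0.52 ± 0.20 (SE, adjusted p = 0.34) for SHPCs with BM-MCs against MHs. Groups did not overlap in either case, an order whose share of all probes was counted only for control SHPCs. Between SHPC groups both probes differed by less than their standard error, at -0.10 and -0.18, and the brighter one gave -0.21 within row 2 (adjusted p = 0.85).

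Mlxipl encodes ChREBP, the carbohydrate-responsive transcription factor that acts beside SREBP-1c on lipogenic genes. Its log2 levels were -2.52 and -2.13 in MHs, -2.37, -2.86 and -2.17 in control SHPCs, and -1.72, -1.61 and -1.80 in SHPCs with BM-MCs. It was the only member in which every BM-MC sample lay above every control SHPC sample, an order shared by 13.1% of all probes. The difference was 0.76 ± 0.19 (SE), a 1.69-fold higher signal, with a 95% interval from 0.29 to 1.23 and an adjusted p = 0.18 from limma. Over the alternative settings the difference ran from 0.37 to 0.95, and within row 2 of the slide, with control SHPC replicate 3 as the lone control, it was 0.46 (adjusted p = 0.72). Against MHs, SHPCs with BM-MCs differed by 0.62 ± 0.22 (SE, adjusted p = 0.33) and control SHPCs by -0.14 ± 0.22 (SE, adjusted p = 0.76), with -0.29 for the controls within row 1 (adjusted p = 0.53).

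Pnpla3, which encodes a triglyceride and retinyl ester hydrolase of lipid droplets, was not well above background with either of its 2 probes on any of the 7 arrays with complete marks. On these arrays its brighter probe lay between -8.33 and -7.31 on the log2 scale, and the lowest signal of any probe well above background between -6.32 and -5.61. In control SHPC replicate 2, where marks are incomplete, the probe stood at -6.44. No fold is given for it.

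**Figure D2:**
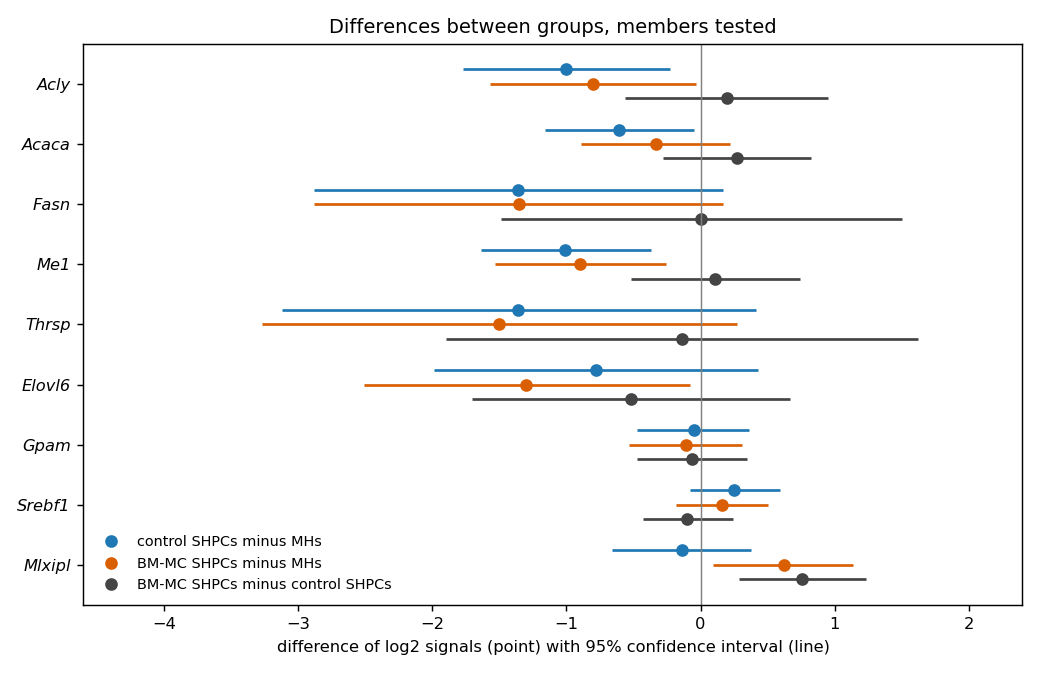
The plot gives, for each of the 9 members tested, the difference of log2 signals (point) with its 95% confidence interval (line) for control SHPCs minus MHs, BM-MC SHPCs minus MHs and BM-MC SHPCs minus control SHPCs. The 6 members from Acly to Elovl6 have points below 0 in both comparisons with MHs, and the intervals of Fasn and Thrsp are the widest.

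The median difference of the 9 tested members was -0.78 for control SHPCs minus MHs, against -0.03 for all probes. It was -0.80 for SHPCs with BM-MCs minus MHs, against 0.00, and 0.00 between SHPC groups, against 0.02. Both comparisons with MHs share the same 2 MHs samples. Members at least 2-fold lower than MHs numbered 3 in control SHPCs (Fasn, Me1 and Thrsp, with 2.70% of all probes) and 3 in SHPCs with BM-MCs (Fasn, Elovl6 and Thrsp, with 0.939%). Acly in control SHPCs lay just short of this mark. These counts rested on single samples: without control SHPC replicate 3 the first was 0, without BM-MC replicate 3 the second was 0, and without BM-MC replicate 1 the second was 5. Both were 0 with the row of the slide or the replicate number as a block, and the former was 0 within row 1. For control SHPCs minus MHs, the row block, the fit within row 1 and leaving out replicate 3 set the same samples against MHs. They gave the same differences and are not separate checks. The medians against MHs were -0.50 and -0.49 when the replicate 3 sample of the SHPC group concerned was left out. No row of the slide held both MHs and BM-MC samples. With the row as a block the median of that comparison was -0.14, and the members lay between -0.58 (Gpam) and 0.17 (Mlxipl), with Fasn at -0.14 against -1.35 without the block. In that fit control SHPC replicate 3 against the other controls alone set the row effect, so the shift rests on that sample. Between SHPC groups the median was 0.51 without BM-MC replicate 3 and 0.46 within row 2. The row of the slide and transplantation cannot be fully told apart for these members.

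Marker lists of hepatocytes and of other cells were set beside the members. In laser-captured tissue, fewer cells of a type and less RNA per cell cannot be told apart. The 8 hepatocyte markers had summed log2 levels between 9.17 and 9.5 in all samples, and 0 of 8 passed limma after adjustment in any comparison (4, 2 and 0 at an unadjusted p under 0.05 for control SHPCs minus MHs, SHPCs with BM-MCs minus MHs and between SHPC groups, with 3, 0 and 0 by the methods' t-test). Alb, Ttr and Serpina1 carried most of that hepatocyte sum, and other markers of the list moved both ways. For control SHPCs minus MHs Cyp2e1 lay at -1.23 (adjusted p = 0.13 from limma), and Tat, Cps1 and Apoa1 at 1.04, 0.92 and 0.73. Of the 8, 6 lay above 0 there and 2 below. All 7 macrophage markers were tested and 0 passed (4, 3 and 1 at an unadjusted p, with 1, 0 and 0 by the methods' t-test). Their summed level was 5.56 to 5.72 in MHs, 4.68 to 5.24 in control SHPCs and 5.02 to 5.51 in SHPCs with BM-MCs, with replicate 3 lowest in either SHPC group, as for Fasn. Clec4f carried most of this sum. Against MHs, 6 of the 7 markers lay below 0 in either comparison, with Marco above 0 at 0.08 and 0.05. Of 6 adipocyte markers, Adipoq, Lep and Plin1 were too dim to test. The other 3, of which Cfd carried most of the signal, summed to 3.13 to 3.28 in MHs, 1.92 to 2.61 in control SHPCs and 2.14 to 2.90 in SHPCs with BM-MCs. For control SHPCs minus MHs, Cfd differed by -1.0 (adjusted p = 0.17), Cidec by -0.16 and Fabp4 by 0.24, so the order of the sum was not that of all 3 genes. The 5 erythroid genes on the array stood out in control SHPC replicate 3, at a summed level of 6.75 against 3.89 to 5.31 in the other samples, and between SHPC groups 0 of 5 passed, with 4 at an unadjusted p by limma and 0 by the methods' t-test. The 3 granulocyte markers tested, of 5, summed to -1.34 to 0.59 in MHs, 0.17 to 0.65 in control SHPCs and -1.46 to -1.06 in SHPCs with BM-MCs, without overlap between SHPC groups. There S100a9 differed by -1.84 (adjusted p = 0.068), and 0 of 3 passed, with 3 at an unadjusted p by limma and by the methods' t-test. All 5 cholangiocyte markers lay above 0 in both comparisons with MHs, with medians of 0.95 and 0.71, though Krt7, Krt19 and Cftr were not well above background in some samples (Krt7 in all 3 control SHPC samples), and 0 passed (2, 0 and 1 at an unadjusted p in the order above, and 0 by the methods' t-test in each). Their sums were -1.81 to -1.50 in MHs, -1.26 to -1.12 in control SHPCs and -1.25 to -0.88 in SHPCs with BM-MCs, with MHs lowest. Of the endothelial markers 5 of 7 were tested and 0 passed (2, 0 and 2 at an unadjusted p, with 1, 0 and 1 by the methods' t-test), and their sums were 3.84 to 4.11 in MHs, 3.67 to 3.86 in control SHPCs and 3.88 to 4.02 in SHPCs with BM-MCs. All 8 stellate cell or fibroblast markers were tested and 0 passed (4, 3 and 1, with 4, 2 and 1 by the methods' t-test), with sums of 3.12 to 3.18, 2.87 to 3.0 and 2.87 to 3.49.

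The 6 progenitor or fetal hepatocyte genes split into 3 above and 3 below 0 for control SHPCs minus MHs. H19, a fetal noncoding RNA, was the 1 that passed there, at 5.55 (adjusted p = 0.031 from limma), and in SHPCs with BM-MCs it stood at 3.83 against MHs (adjusted p = 0.18). Cd44, Dlk1 and Igf2 lay at -0.94, -1.01 and -0.44 in the former comparison and did not pass, and Dlk1 was dim, near background, on the arrays of control samples 1 and 3. Afp and Gpc3 lay above 0 there, at 0.69 (adjusted p = 0.087 from limma) and 1.04 (adjusted p = 0.12). In SHPCs with BM-MCs against MHs they lay at 0.63 and 0.75, and 5 of the 6 genes lay above 0. Gpc3 was dim in MHs replicate 2 and BM-MC replicate 2. Among proliferation genes 6 of 7 tested were higher in control SHPCs than in MHs past the adjusted threshold and 5 of 7 in SHPCs with BM-MCs. Between SHPC groups 0 of 7 passed, with 6 at an unadjusted p by limma and by the methods' t-test, all 7 lay below 0, and the median was -0.98. The list had summed levels of 0.52 to 0.55 in MHs, 2.23 to 2.55 in control SHPCs and 1.28 to 1.97 with BM-MCs. The part of these cells and of cell division in the members' levels was not tested.

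**Figure D3:**
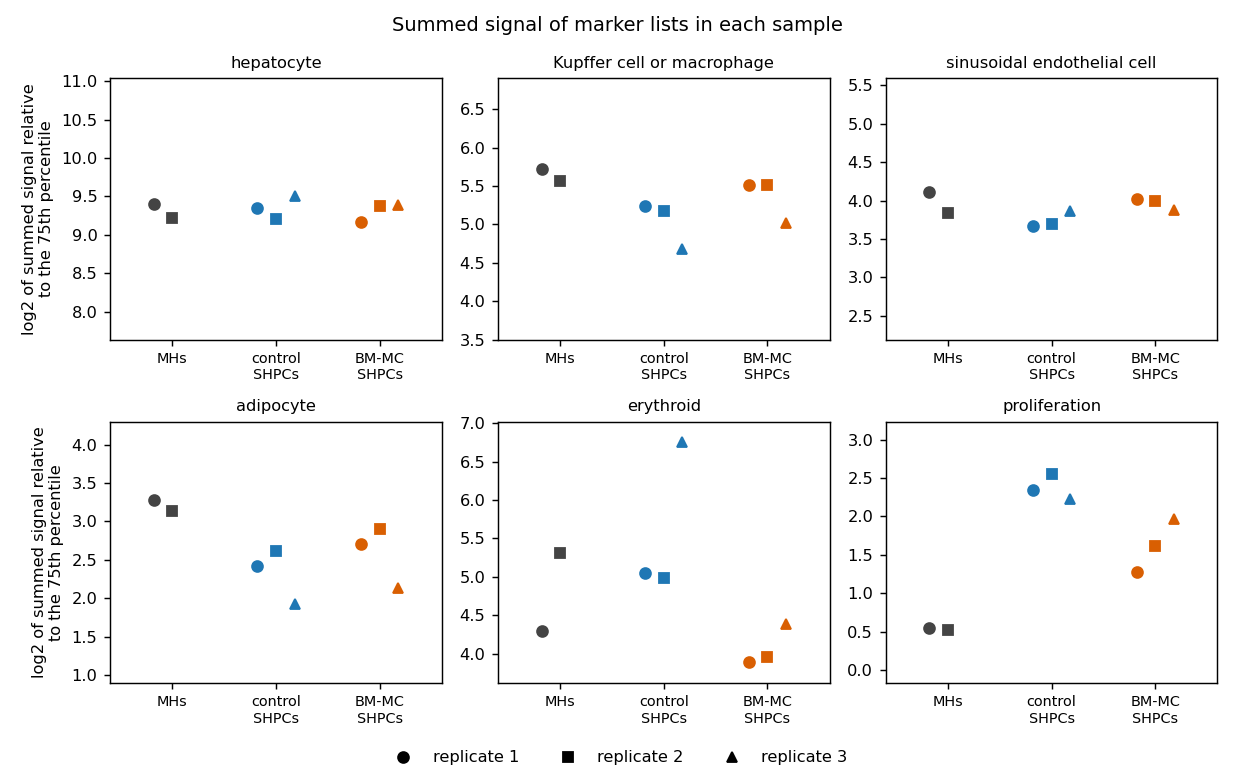
Each panel plots the log2 of the summed signal of the tested genes of a marker list, relative to the 75th percentile of the array, per sample. Points are samples, their shape is the replicate number, and every panel spans 3.4 log2 units. The macrophage and adipocyte panels have MHs highest and replicate 3 lowest in each SHPC group, and the proliferation panel has MHs lowest. Clec4f carried most of the macrophage sum and Cfd most of the adipocyte sum.

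The wider pathway was followed through 6 lists of 73 genes, of which 71 were tested. In each comparison 0 of 71 passed limma after adjustment. At an unadjusted p under 0.05 limma gave 7 for control SHPCs minus MHs, 12 for SHPCs with BM-MCs minus MHs and 5 between SHPC groups, and the methods' t-test gave 13, 8 and 7, and 0 after adjustment. The median of the 71 genes was -0.05, -0.05 and -0.02 in these comparisons, near that of all probes.

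In the list of carbon and NADPH supply (16 of 16 tested, median -0.01 for control SHPCs minus MHs), the lowest p in that comparison belonged to Tkfc, the triokinase that carries fructose carbon into glycolysis. Its difference was -1.47 ± 0.54 (SE, adjusted p = 0.22 from limma).

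Among desaturases and elongases (10 of 11 tested, median 0.18), Elovl2, an elongase of polyunsaturated fatty acids, lay opposite to Elovl6. It stood at 2.18 and 2.15 in MHs, 2.91, 2.98 and 3.23 in control SHPCs and 2.58, 2.92 and 3.08 in SHPCs with BM-MCs. Its differences from MHs were 0.87 ± 0.18 (SE, adjusted p = 0.079 from limma) and 0.70 ± 0.18 (SE, adjusted p = 0.23). Scd, stearoyl-CoA desaturase, was picked after its values were seen because it followed Fasn. It stood at 3.68 and 2.81 in MHs, 1.90, 2.02 and 0.23 in control SHPCs and 2.33, 1.34 and -0.89 in SHPCs with BM-MCs. Its differences from MHs were -1.86 ± 0.94 (SE, adjusted p = 0.33) and -2.31 ± 0.94 (SE, adjusted p = 0.36). Replicate 3 was the lowest sample of each SHPC group, and no fit without it is given for Scd. Between SHPC groups the lowest p in this list was that of Fads1, a desaturase of polyunsaturated fatty acids, at -0.34 (adjusted p = 0.44).

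In glycerolipid synthesis (13 of 13 tested, median -0.09) Acsl3, an acyl-CoA synthetase of lipid droplets, differed from MHs by -0.72 ± 0.20 in control SHPCs (SE, adjusted p = 0.14 from limma) and by -0.88 ± 0.20 in SHPCs with BM-MCs (SE, adjusted p = 0.20). Agpat2, the acyltransferase after Gpam, was lower in every BM-MC sample than in every control SHPC sample, with a difference of -0.56 ± 0.14 (SE, adjusted p = 0.18).

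Among transcription factors, SREBP processing and insulin input (17 of 17 tested, median -0.04), Insig2, which retains SREBPs in the endoplasmic reticulum, differed from MHs by -0.50 ± 0.20 in control SHPCs (SE, adjusted p = 0.24 from limma) and by -0.94 ± 0.20 in SHPCs with BM-MCs (SE, adjusted p = 0.17). Insr, the insulin receptor, differed by 0.34 ± 0.13 between SHPC groups (SE, adjusted p = 0.27). In the list of malonyl-CoA control (8 of 8 tested, median -0.07) Mid1ip1, a partner of Spot 14 that acts on acetyl-CoA carboxylase, lay at -0.67 ± 0.28 in control SHPCs against MHs (SE, adjusted p = 0.25). Prkab1, a regulatory subunit of AMPK, differed by 0.34 ± 0.12 between SHPCs with BM-MCs and MHs (SE, adjusted p = 0.32) and by 0.21 ± 0.11 between SHPC groups (SE, adjusted p = 0.38).

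Of the genes that share ChREBP as a regulator with the members (7 of 8 tested), 6 of 7 lay below 0 for control SHPCs minus MHs, where 53.8% of all probes did, and their median was -0.49. For SHPCs with BM-MCs minus MHs 4 of 7 lay below 0 (49.5% of all probes) with a median of -0.35, and between SHPC groups 3 of 7 (47.4%) with a median of 0.17. Txnip, the thioredoxin-interacting protein, had the lowest p of the list for control SHPCs minus MHs, at -0.82 ± 0.27 (SE, adjusted p = 0.19 from limma). Ppp1r3b, a glycogen-targeting subunit of protein phosphatase, stood at -4.05 and -4.75 in MHs, -4.87, -4.76 and -5.04 in control SHPCs and -5.53, -5.74 and -5.74 in SHPCs with BM-MCs. It was well above background in 1 of the 3 BM-MC samples, so its differences rest in part on signals at the background. As measured, SHPCs with BM-MCs lay at -1.27 ± 0.21 against MHs (SE, adjusted p = 0.083) and at -0.78 ± 0.13 against control SHPCs (SE, adjusted p = 0.12). With dim signals raised to the lowest signal well above background on their array, the differences were -1.24 and -0.75. No list held a gene past the adjusted threshold.

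**Figure D4:**
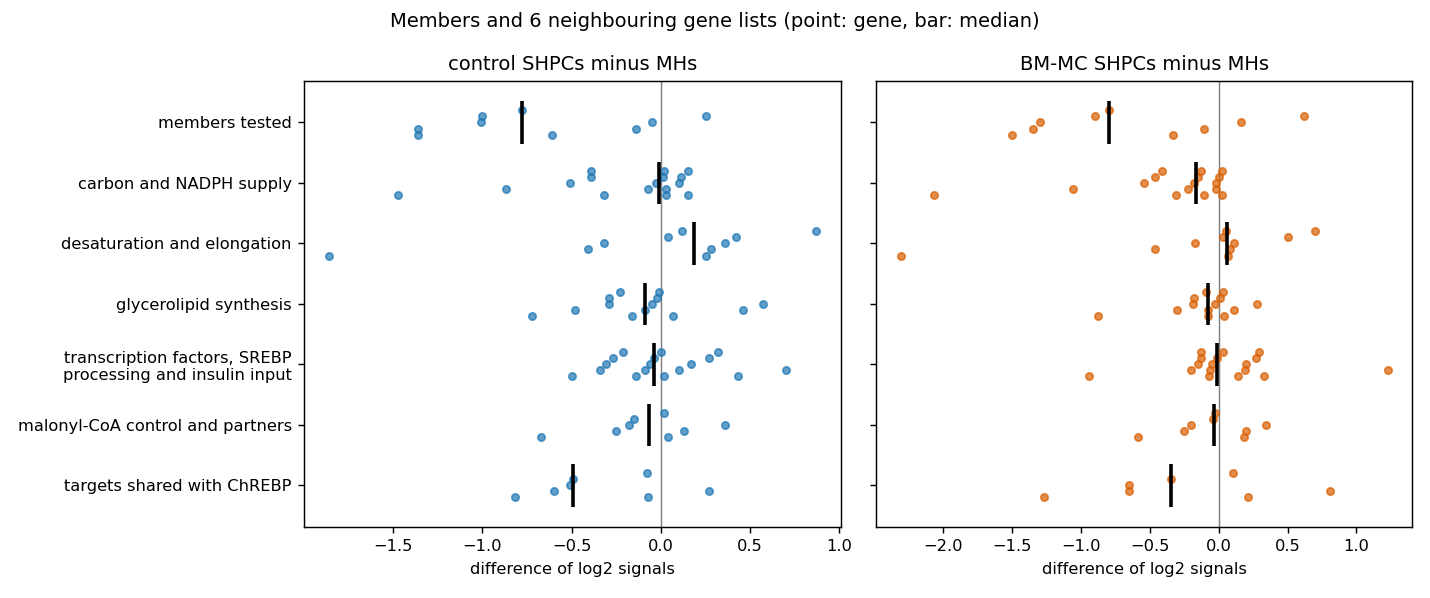
The panels plot the difference of log2 signals of each tested gene (point) and the median (bar) for the members and 6 neighbouring lists, for control SHPCs minus MHs and BM-MC SHPCs minus MHs. The members' medians lie at -0.78 and -0.80, and among the other lists that of ChREBP targets lies lowest, at -0.49 and -0.35.

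As a description of likeness, the mean over the 9 tested members of their values centred on each gene's mean was compared with 14452 named genes over the 8 samples. Among the genes most like it, 4 are given here, each with a Pearson correlation of 0.98: Tkfc, Gja1 (connexin 43), Csf1r (the macrophage colony-stimulating factor receptor) and Srp72 (a subunit of the signal recognition particle). Tkfc stood at 1.60 and 2.10 in MHs, 0.63, 0.60 and -0.10 in control SHPCs and 1.56, 1.18 and -0.36 in SHPCs with BM-MCs. Its BM-MC replicate 1 lay close to the lower MHs sample and replicate 3 below every control. Against the mean of the other members, Fasn and Acly correlated at 0.98, Thrsp at 0.94 and Acaca at 0.91, whereas Gpam stood at 0.04, Mlxipl at -0.25 and Srebf1 at -0.60.

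**Figure D5:**
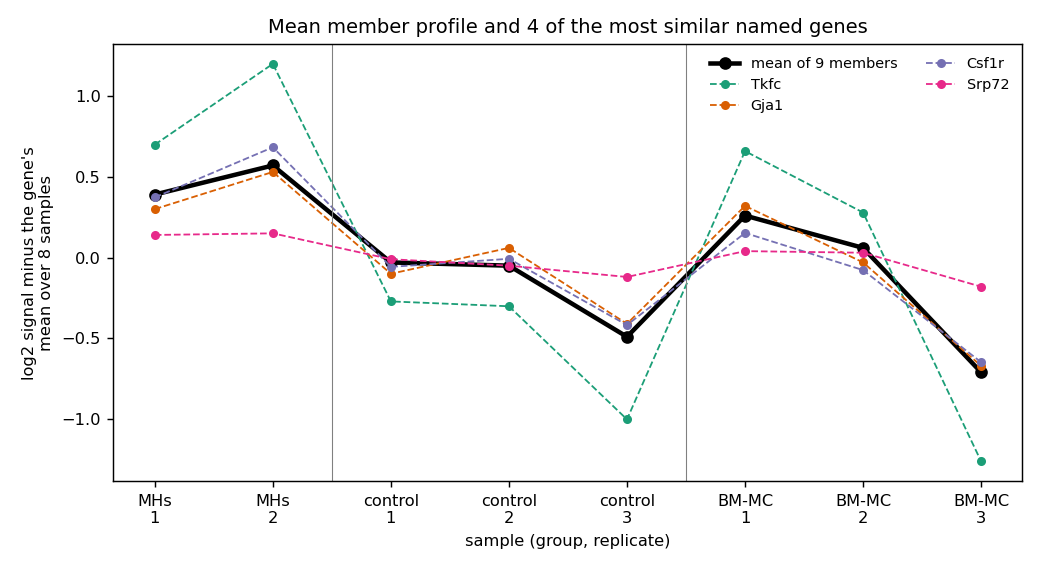
The log2 signal minus the gene's mean over the 8 samples is plotted per sample for the mean of the 9 members tested (thick line) and 4 of the most similar named genes (dashed lines). The mean of the members was 0.39 and 0.57 in MHs, and its lowest values were -0.49 in control SHPC replicate 3 and -0.71 in BM-MC replicate 3.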

How the data were processed

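RNA of 8 LMD samples was hybridised to 1-colour Agilent rat arrays. The authors deposited the processed signal intensity of Agilent Feature Extraction 10.7, background-subtracted and not scaled between arrays. The scanner file of control SHPC replicate 2 breaks off after 20903 of 62976 features, and the deposited value table, which holds these intensities too, supplied the signals of that array (largest relative difference elsewhere 1.19e-06). Signals were divided by the 75th percentile of each array and set on the log2 scale, without outlier spots and with repeat spots of a probe averaged. A probe was tested where at least 3 of the 7 completely marked arrays had it well above background, which kept 23111 probes. The test was limma 3.58.1 in R 4.3.3 and Benjamini-Hochberg adjustment at a threshold of 0.05. The comparison between SHPC groups used 6 samples, and the other comparisons used 1 fit of all 8. A gene's values are those of its tested probe with the highest mean signal. Of the lists, the gene with the lowest p was named where none passed. Some results that this rule or the ranking by likeness would name are not reported here. The members and lists were chosen with earlier results of these data known. Probe names were updated through RefSeq by accession for 21109 probes, and promoters came from RefSeq (GRCr8). The fits were tested on simulated data. Alternatives were other scalings, filters, fits, blocks and left-out samples, and leaving out both samples numbered 3 was added after seeing the data. The number of arrays limits the precision. The labels give the rats as DPPIV+, whereas the methods describe DPPIV- recipients, and groups rest on cell type and transplantation only.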

Additional observations from a re-analysis of the deposited data

How the results depend on the processing

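No member passed an adjusted p under 0.05 under any alternative. At an unadjusted p the methods' t-test gave 1 member (Mlxipl) between SHPC groups, 4 for control SHPCs minus MHs (Acaca, Acly, Me1 and Srebf1) and 1 (Mlxipl) for SHPCs with BM-MCs minus MHs. Of 675 gene values under alternatives, 638 kept direction and side of the threshold, and 31 changed sign, none of them called. The members' median ran, with 1 sample left out at a time, from -0.12 to 0.51 between SHPC groups, from -1.0 to -0.50 for control SHPCs minus MHs and from -1.01 to -0.49 for SHPCs with BM-MCs minus MHs. With the row of the slide as a block it was 0.46, -0.50 and -0.14, and 0.46 within row 2. The row effect there was set by control SHPC replicate 3 against the other controls. For control SHPCs minus MHs the row block therefore gave the same differences as leaving that sample out.

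Between SHPC groups, Fasn was -0.19 with median scaling, -0.01 with quantile normalization and -0.12 with array weights, Me1 -0.08 with median scaling, Elovl6 0.27 and Thrsp 0.75 with the row as a block and within row 2, Thrsp 0.06 with normexp and quantile normalization and 0.20 without both samples numbered 3, and Gpam 0.01 with the mean over probes, 0.04 with array weights and 0.14 without both samples numbered 3. Median scaling moved the median of all probes there to -0.17, and that of SHPCs with BM-MCs minus MHs to -0.19. With 1 sample left out, Fasn ran from -0.43 to 0.64, Acly from -0.01 to 0.51, Me1 from -0.14 to 0.26, Thrsp from -0.59 to 0.65 and Gpam from -0.19 to 0.10. Without a change of sign, Acaca ran from 0.15 to 0.51, Elovl6 from -0.91 to -0.08, Mlxipl from 0.56 to 0.91 and Srebf1 from -0.20 to -0.01. For control SHPCs minus MHs, Gpam was 0.11 and Mlxipl 0.06 with normexp and quantile normalization, and with 1 sample left out they ran from -0.21 to 0.07 and from -0.33 to 0.06. For SHPCs with BM-MCs minus MHs, Srebf1 was -0.04 with median scaling and -0.02 with the row as a block. The cause was not tested.

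Samples share replicate numbers, and with the number as a block (a paired fit) 0 members passed in any comparison and the members' medians were 0.00, -0.44 and -0.54. Same-numbered SHPC samples correlated in their deviations at 0.13, 0.08 and 0.17, against -0.15 to 0.08 for SHPC samples of different number. Same-numbered MHs and SHPC samples correlated at -0.13 to 0.05. These correlations were low and the numbers were not taken as pairs, though a link between same-numbered samples was not excluded. The number of all probes called ran from 0 to 530 between SHPC groups, from 55 to 523 for control SHPCs minus MHs and from 0 to 115 for SHPCs with BM-MCs minus MHs when 1 sample was left out, with 530 without control SHPC replicate 3. Dim signal limited Pnpla3, which could not be tested.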
